A study of Sebastes mystinus with 44 samples.

Results

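White muscle of juvenile blue rockfish (Sebastes mystinus) kept for 12 h in seawater of lowered pH was compared with white muscle of juveniles kept for 12 h in control seawater. The comparison was taken by exposure and sampling time alone, which left 8 of the 44 libraries of the series: 4 pH fish (Mys17, Mys18, Mys19 and Mys20) and 4 control fish (Mys13, Mys14, Mys15 and Mys16), each library from 1 fish. Per the labels, all fish lived in flow-through seawater at 11.4 to 12.3 °C, 10 fish to each of 8 aquaria. In the pH group the water was acidified by bubbling carbon dioxide, and control fish had neither that nor the nitrogen used to remove oxygen from other aquaria. The sources used here do not give the pH reached, the aquarium of each fish or its library preparation set (there were 2 sets of 24, filled in random order). Fish of 1 group may therefore share an aquarium, and the p-values measure the spread between these fish. Further groups sampled at 12 h, named DO (lowered oxygen) and cross (not defined in the labels), each with 4 fish, entered the same statistical fit and are used below for reference. In whole muscle, fewer cells of a type and less RNA per cell cannot be told apart.

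When carbon dioxide rises in seawater it also rises in the blood of a fish and acidifies it. Marine fish restore blood pH by exchanging ions across specialised cells of the gill, while bicarbonate accumulates in the blood. Muscle pH is regulated in turn by buffering within the cell and by transport of acid and bicarbonate across the muscle cell membrane. White muscle, the bulk of the trunk, consists of fast glycolytic fibres used in burst swimming, and its messenger RNA is dominated by a small number of contractile and glycolytic transcripts. Blue rockfish settle as juveniles into kelp forests of the California Current, where upwelling brings water that is low in both pH and oxygen.

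The question was whether muscle transcripts differ between the groups within the first 12 h of exposure. Transcripts were counted on 239549 features of a de novo assembly, of which 136070 had no count in any of the 8 fish, and 24701 passed the low-count filter and were tested. The features carry Trinity identifiers without gene names, so the tissue label could not be checked against markers, no pathway could be counted, and no role is given for any feature. The 4 control libraries held 12196366 to 16933708 counts and the 4 pH libraries 17445936 to 36692527, so every pH library was deeper than every control library. The difference in totals had the smallest p that 4 against 4 fish allow (0.0286, two-sided exact permutation test over 70 splits; 0.171 after Benjamini-Hochberg adjustment over 6 values per fish). At these depths 3 counts corresponded to 0.0818 to 0.246 CPM (counts scaled to the library total), which bounds what a count of 0 can show, counting error only. Since depth and group cannot be told apart, several results that lean on low counts are also given after thinning every 12 h library at random to the smallest total.

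No feature passed the test between pH and control fish at 12 h. The quasi-likelihood F test of edgeR called 0 of 24701 features (0%) at a Benjamini-Hochberg adjusted p under 0.05, and the smallest adjusted p was 0.873. At an unadjusted p under 0.05 it held 526 features (2.13%), of which 247 (1%) were higher and 279 (1.13%) lower in pH fish, and 10 features had an unadjusted p under 0.001. The unadjusted p-values were weighted towards 1, so fewer fell under 0.05 than evenly spread p-values would give. P-values of up to 0.1 were found for 1307 features (5.29%) and p-values above 0.9 for 2995 (12.1%). Limma voom with quality weights also made 0 calls (0%), and 982 features had an unadjusted p under 0.05. DESeq2 called 7 features (0.0283%), all lower in pH fish, and its unadjusted p was under 0.05 for 583. These 7 are described below.

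Differences between the group means were small for most features. The median log2 fold change (pH minus control) was -0.01, the median of its absolute value 0.22 and the 90th percentile 0.67, and 82.1% of features lay within 0.5 of 0 on the log2 scale. Fold changes above 0 made up 49.2% of all features. The TMM library scaling centres fold changes near 0, so this share and the median near 0 are largely set by it. A log2 fold change of at least 1 was found for 351 features (1.42%), and one of -1 or lower for 564 (2.28%). The balance of these counts moved with the fish left out: they were 784 and 787 without control fish Mys13, which left no imbalance, and 449 and 990 without pH fish Mys17. Over all 8 fish left out in turn they ran from 419 to 784 higher and from 787 to 1028 lower. All of these lie above the counts with every fish kept. A group then has fewer fish and more features pass the filter, so the rise itself is no trait of single fish. After thinning to equal depth, with every fish kept, the counts were 239 (1.13%) and 443 (2.1%).

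These larger differences often came from a single fish. Of the 351 features past a log2 fold change of 1, 139 (39.6%) had more than 50% of the summed CPM of the pH group in 1 fish, against 6.13% of all tested features. The pH fish Mys18 was the highest of its group in 137 of the 351. Of the 564 features past -1, 239 (42.4%) had more than 50% of the control group's CPM in 1 control fish, against 7.91% of all features, and Mys15 and Mys13 were the highest controls in 194 and 191 of them. Groups that did not overlap were found in 34 of the 351 (9.69%) and 79 of the 564 (14%), against 1.3% and 1.05% of all tested features. Both sets were picked for a large difference in these same 8 fish. Under 1 CPM lay 189 of the 351 and 326 of the 564, and the shares of all features are not matched for abundance. The shares in this paragraph are therefore a description.

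**Figure D1:**
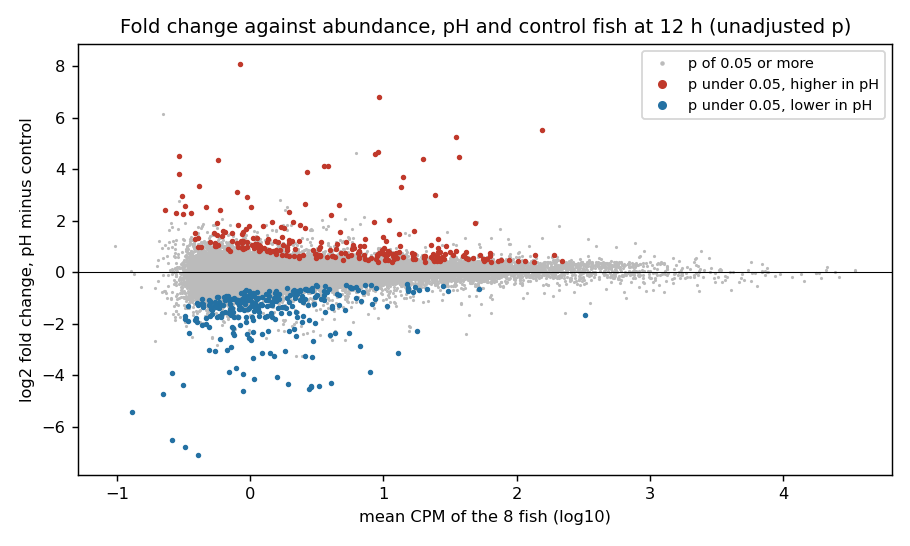
Log2 fold change (pH minus control at 12 h, vertical axis) of each tested feature against its mean CPM over the 8 fish (horizontal axis, log10 scale). Red and blue points have an unadjusted p under 0.05 in edgeR and are higher or lower in pH fish. Most of the 24701 points lie within 0.5 of 0, and the large differences sit at low abundance.

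The direction of the group difference, taken over features, varied with transcript abundance. Directions are relative to the library scaling, so only differences between the classes are described. Features were sorted by mean CPM over the 8 fish into classes under 1 (6870 features), 1 to 10 (12608), 10 to 100 (4334), 100 to 1000 (765) and 1000 or more CPM (124). The share of features higher in pH fish was 42.8% in the lowest class, 46.5% in the second, 63.4% at 10 to 100 CPM, 71.9% at 100 to 1000 CPM and 46.8% in the highest class. The median log2 fold change went with it, from -0.09 and -0.02 in the lowest classes to 0.07 at 10 to 100 CPM and 0.15 at 100 to 1000 CPM, and was -0.01 in the highest class.

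Features whose 4 pH fish all lay above or all lay below the 4 control fish followed a like course. Over all features, 582 (2.36%) had groups that did not overlap, 322 (1.3%) with pH fish higher and 260 (1.05%) with pH fish lower. If the groups were arbitrary, the pH fish would lie highest in 1 of 70 splits and lowest in 1 of 70. Both shares over all features lie below that. The class shares that follow lie on both sides of it. As features are not independent, they were not tested against it. Under 1 CPM there were 47 higher (0.684%) and 107 lower (1.56%), and at 1 to 10 CPM 123 higher (0.976%) and 128 lower (1.02%). At 10 to 100 CPM there were 119 higher (2.75%) and 22 lower (0.508%), and at 100 to 1000 CPM 29 higher (3.79%) and 2 lower (0.261%). In the highest class 4 were higher (3.23%) and 1 lower (0.806%). Counts at an unadjusted p under 0.05 in edgeR were 50 higher (0.728%) and 119 lower (1.73%) under 1 CPM. They were 112 (0.888%) and 146 (1.16%) at 1 to 10 CPM and 78 (1.8%) and 13 (0.3%) at 10 to 100 CPM. At 100 to 1000 CPM they were 7 (0.915%) and 1 (0.131%), and above that 0 in both directions.

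Thinned to equal depth, the share of features higher in pH fish was 41.2% under 1 CPM, 44.9% at 1 to 10 CPM, 60.2% at 10 to 100 CPM, 70% at 100 to 1000 CPM and 44.4% in the highest class. The features whose groups did not overlap then numbered 237 higher (1.12%) and 241 lower (1.14%), so the excess of higher ones over all features was gone. At 10 to 100 CPM there were 85 higher (1.95%) and 28 lower (0.644%). At an unadjusted p under 0.05 in edgeR, 188 thinned features (0.89%) were higher and 285 (1.35%) lower. Without control fish Mys15, and not thinned, features whose groups did not overlap numbered 600 higher (2.29%) and 648 lower (2.48%). With 1 fish fewer, groups separate more easily by construction. Without the low-count filter, pH fish were higher in 55.3% of features at 1 to 10 CPM and 61.3% at 1000 CPM or more. The median log2 fold change rose in every class from 1 CPM up. It went from -0.02 to 0.04 at 1 to 10 CPM and from 0.07 to 0.14 at 10 to 100 CPM. In the next classes it went from 0.15 to 0.22 and from -0.01 to 0.04. The direction of a class thus depended on the filter, while the order of these classes by median did not change. At 10 to 100 and 100 to 1000 CPM the unfiltered shares were 72.4% and 78.4%.

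Tested over fish, none of the class differences passed. With 4 against 4 fish the smallest possible exact permutation p is 0.0286. A single class at that p could not pass after adjustment over the 5 classes, so not passing says little. For each fish the median deviation of a class from the 8-fish mean was taken on the log2 scale. At 10 to 100 CPM it was 0.04, -0.0008, 0.06 and 0.09 in the pH fish Mys17 to Mys20 and -0.08, -0.07, 0.01 and -0.0012 in the control fish Mys13 to Mys16. Only Mys18 among the pH fish lay within the range of the controls, and the difference of the means was 0.08 (two-sided exact permutation p = 0.0571, 0.286 adjusted over the 5 classes). At 100 to 1000 CPM the difference was 0.14 (exact p = 0.143, adjusted 0.357), with pH fish from -0.06 to 0.21 and control fish from -0.19 to 0.07, so the groups overlapped.

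Under 1 CPM the pH fish were lower by a mean of -0.07 on this scale (adjusted exact p = 0.381), and at 1 to 10 CPM by -0.02 (adjusted exact p = 0.464). Without the low-count filter both differences changed sign, to 0.01 and 0.04. At 1000 CPM or more the difference was -0.03 (adjusted exact p = 0.857) and changed sign with the fish and the filter used. It was 0.03 without the filter, 0.11 without control fish Mys15, 0.02 without pH fish Mys18 and 0.03 without pH fish Mys19.

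**Figure D2:**
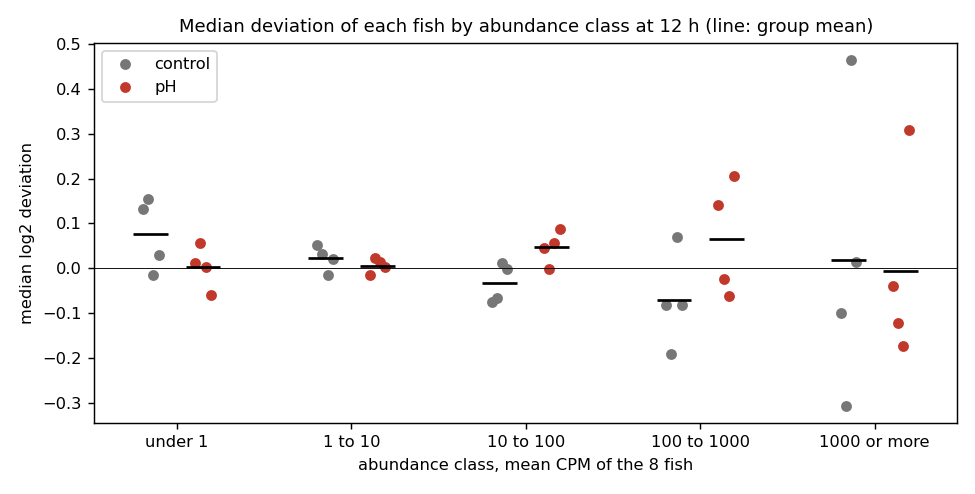
Median log2 deviation of each fish from the 8-fish mean (vertical axis) within each abundance class (horizontal axis, mean CPM of the 8 fish). Grey points are the 4 control fish, red points the 4 pH fish and lines the group means; the groups lie closest to separate at 10 to 100 CPM, and the range between fish is widest at 1000 CPM or more.

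The most abundant transcripts varied more between fish than between groups. TRINITY_DN41934_c44_g1, highest in mean level, stood at 26380, 29930, 41000 and 38270 CPM in control fish Mys13 to Mys16 and at 29600, 30580, 36410 and 46880 CPM in pH fish Mys17 to Mys20. The groups overlapped between 29600 and 41000 CPM, and edgeR gave a log2 difference of 0.08 with an SE of 0.29 (adjusted p = 1.00). TRINITY_DN53379_c62_g3 averaged 34030 ± 12260 CPM in control fish and 35270 ± 9798 CPM in pH fish (SD, n = 4 each), and the log2 difference was 0.05 (SE 0.33). Its highest control was Mys15 at 52380 CPM, against 27310 to 29100 CPM in the other controls. TRINITY_DN44621_c19_g8 averaged 28060 ± 10800 CPM in control fish and 24500 ± 5845 CPM in pH fish, the log2 difference was -0.20 (SE 0.36), and Mys15 was again its highest control at 43570 CPM. The sign of all 3 differences changed when single fish were left out.

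The same fish stood out in the whole profile. The 100 most abundant features took 63.0% of all counts in Mys15, against 52.9% to 57.7% in the other control fish and 53.1% to 58.2% in the pH fish. On the first principal component of log2 CPM (24.9% of the variance) Mys15 and Mys13 lay at opposite ends, at -102.5 and 75.1, while the pH fish lay between -8.51 and 25.2. Mys15 was the highest of the 8 fish in 4314 features and Mys13 in 3745, against 2392 to 3047 in each of the other 6.

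By correlation and median distance, fish of the pH group resembled each other slightly more than control fish did, a difference within the spread between fish. The Pearson correlation of log2 CPM between 2 fish averaged 0.935 within the pH group (6 pairs, 0.927 to 0.949), 0.920 within the control group (6 pairs, 0.884 to 0.942) and 0.930 between groups (16 pairs, 0.908 to 0.948). The mean between groups thus lay between the means within the groups. The median distance of a fish from the mean of its group mates was 0.36 ± 0.02 on the log2 scale in pH fish and 0.40 ± 0.06 in control fish (SD, n = 4 each; two-sided exact permutation p = 0.257, adjusted 0.514).

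Per feature, the median SD of log2 CPM was 0.41 between pH fish and 0.46 between control fish, and the SD was larger among controls in 56.7% of features. By class, the median SD in pH and control fish was 0.58 and 0.65 under 1 CPM, 0.27 and 0.32 at 10 to 100 CPM, and 0.29 and 0.43 at 1000 CPM or more. In that last class 75% of features had the larger SD among controls. Without Mys15 its median SDs were 0.29 and 0.30 and the share was 51.2%, against 59.1% without Mys14 and 80.2% without Mys13. The difference of the medians over all features, 0.05, rested on 2 control fish: it was 0.00 without Mys13 and -0.02 without Mys15. After thinning to equal depth it was 0.027, and the SD was larger among controls in 53.5% of features. Mys13 and Mys15 had the smallest totals of the libraries compared, and whether depth contributed to the spread was not tested. The biological coefficient of variation, the relative spread between fish that edgeR estimates beyond counting error, was 36.9% in the pH group and 37.5% in the control group. It was 35.5% in the DO group and 49.1% in the cross group.

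**Figure D3:**
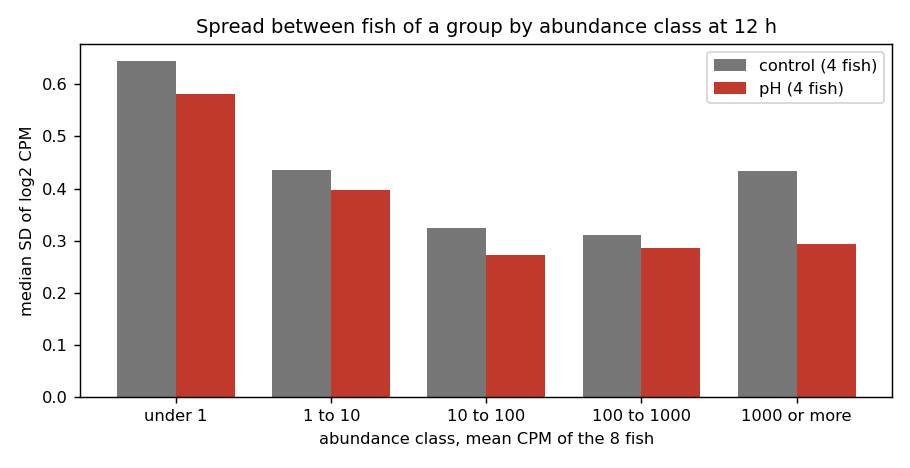
Median SD of log2 CPM between the 4 fish of a group (vertical axis) for the features of each abundance class (horizontal axis, mean CPM of the 8 fish), control fish in grey and pH fish in red. The control bars are taller in every class, with the widest gap, 0.43 against 0.29, at 1000 CPM or more. Without control fish Mys15 (not drawn) the values of that class were 0.30 and 0.29.

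At the low end, 131 of 239549 features had counts in all 4 pH fish and no control fish, and 33 showed the opposite. None of these had 10 counts in each fish. After thinning to equal depth the numbers were 60 and 79, so the larger count moved from the pH side to the control side. Between 49494 and 63689 features were detected in a pH fish and between 45760 and 60979 in a control fish (two-sided exact permutation p = 0.371, adjusted 0.514).

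Of features with an average log2 CPM of at least 1 and groups that did not overlap, the 2 higher and the 2 lower features with the smallest unadjusted p are described next. None of the 4 passed the edgeR test (adjusted p = 1.00 for each), so their values are a description.

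TRINITY_DN53810_c2_g1 stood at 85.9, 96.4, 107 and 130 CPM in control fish Mys13 to Mys16 and at 180, 164, 139 and 194 CPM in pH fish Mys17 to Mys20. Every pH fish lay above every control fish, with a narrow gap between control fish Mys16 and pH fish Mys19. The log2 fold change was 0.69 (SE 0.20, unadjusted p = 0.00328 in edgeR), and it ran from 0.61 to 0.82 when each fish was left out in turn. The other exposures at 12 h lay between the groups, at 136 ± 20.8 CPM in DO fish and 153 ± 23.1 CPM in cross fish (SD, n = 4 each), and the same control fish serve all of these comparisons. Over all 44 fish, 77 other features had a correlation of log2 CPM above 0.8 with it, a description in which all points share library scaling.

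TRINITY_DN50272_c0_g2 stood at 0.37, 0.43, 0.59 and 0.22 CPM in the control fish, in the order above, and at 0.91, 3.15, 1.08 and 23.8 CPM in the pH fish. Mys20 supplied most of the level of the pH group, and the lowest pH fish lay just above the highest control fish. The log2 fold change was 4.14 (SE 1.17, unadjusted p = 0.00303 in edgeR) and 2.07 without Mys20. Its companion in the same assembly component, which may derive from the same gene, had a log2 fold change of -0.27 (unadjusted p = 0.497 in edgeR), and the component summed gave 0.72 (unadjusted p = 0.153). Reads shared between such companions can be split among them, which was not tested. The expected counts of TRINITY_DN50272_c0_g2 were whole numbers in all 4 fish of each group at 12 h.

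TRINITY_DN41366_c0_g1 stood at 0.45, 9.62, 4.16 and 6.92 CPM in control fish Mys13 to Mys16 and at 0.43, 0, 0.15 and 0.40 CPM in pH fish Mys17 to Mys20. Control fish Mys13 was as low as the pH fish, so the groups failed to overlap only by 0.45 against 0.43 CPM, while the other controls were far higher. The log2 fold change was -4.51 (SE 0.95, unadjusted p = 0.000236 in edgeR), and DESeq2 gave an adjusted p of 0.000355. Fish of the DO group ranged from 1.55 to 5.36 CPM and fish of the cross group from 1.40 to 9.49 CPM, all above every pH fish. In the pH and control fish alone this feature did not pass the low-count filter. Higher levels in some DO or cross fish were therefore needed for it to be tested, so their level is no separate result. Pairwise, the log2 difference of pH from DO was -3.95 (edgeR adjusted p = 0.632) and that of pH from cross -4.50 (edgeR adjusted p = 0.998), neither past the threshold.

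TRINITY_DN44208_c1_g7 stood at 2.45, 2.45, 7.14 and 5.06 CPM in the control fish and at 1.71, 2.07, 2.24 and 1.12 CPM in the pH fish. The highest pH fish, Mys19, lay just below control fish Mys13 and Mys14. The log2 fold change was -1.23 (SE 0.36, unadjusted p = 0.00334 in edgeR). DO fish averaged 1.66 ± 0.53 CPM and cross fish 2.01 ± 0.39 CPM (SD, n = 4 each), so the 3 exposed groups lay at one low level and the shared controls above it, with log2 fold changes of -1.34 and -1.08 against control. The 7 features of its component together gave -0.26 (unadjusted p = 0.346 in edgeR).

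**Figure D4:**
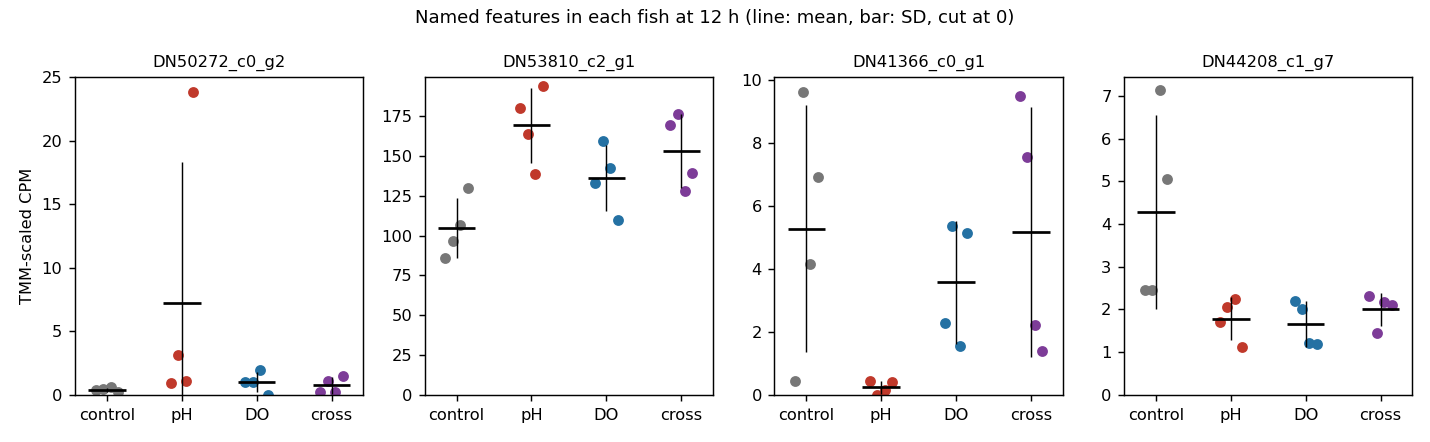
TMM-scaled CPM (vertical axes) of the 4 features in each fish of the 4 groups sampled at 12 h; points are fish, thick lines group means and thin bars the SD, drawn no lower than 0. TRINITY_DN53810_c2_g1 shows tight pH and control groups, TRINITY_DN50272_c0_g2 rests on 1 pH fish at 23.8 CPM, and in TRINITY_DN41366_c0_g1 1 control fish sits at the level of the pH fish.

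TRINITY_DN41366_c0_g1 was 1 of the 7 features that DESeq2 called, and all 7 varied together. Among the 7, the groups did not overlap only in TRINITY_DN41366_c0_g1 and TRINITY_DN52647_c0_g2. TRINITY_DN56080_c19_g1 and TRINITY_DN56080_c19_g2 belong to the same component and may derive from the same gene. TRINITY_DN56080_c18_g1 shares the first part of their identifier, so the 7 may not be separate transcripts. Their log2 CPM was correlated at 0.76 to 0.945 over all 21 pairs of features in the 44 fish (points that share library scaling). The 44 fish include the pH and control fish of 12 h whose values picked the set, so part of this correlation was built in. Because the set was picked by its values, it is described without a test. Summed, the 7 features stood at 1.29, 46.0, 22.6 and 33.4 CPM in control fish Mys13 to Mys16 and at 1.53, 0.70, 0.63 and 2.64 CPM in pH fish Mys17 to Mys20. The pH fish and Mys13 formed the low end, and the other 3 controls the high end.

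Elsewhere in the series such low sums were rare. The set summed to 8.72 to 27.96 CPM in DO fish and 10.1 to 45.6 CPM in cross fish at 12 h. Its features passed the 12 h filter only through counts in some of these fish, so higher sums there were partly built in. In pH fish it summed to 10.4 to 22.4 CPM at 24 h, and at 2 weeks to 1.68 CPM in Mys53 and 25.4 CPM in Mys54. In the remaining groups at 24 h and 2 weeks every fish had at least 4.56 CPM. The low level at 12 h was thus not shared by the pH fish sampled at 24 h.

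**Figure D5:**
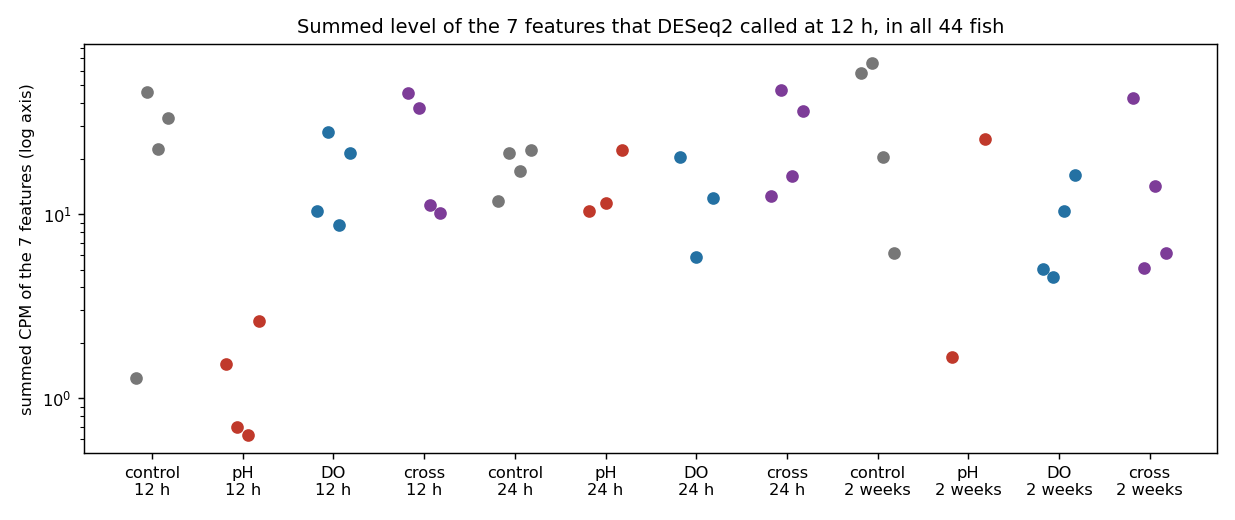
Summed CPM of the 7 features called by DESeq2 at 12 h (vertical axis, log scale) in each of the 44 fish, by exposure and sampling time (horizontal axis). The 4 pH fish at 12 h lie between 0.63 and 2.64 CPM, together with control fish Mys13 at 12 h and pH fish Mys53 at 2 weeks, and all other fish lie at 4.56 CPM or higher.

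Assembly features are not independent of each other, since several can come from 1 gene. Of the 24701 tested features, 14262 (57.7%) had another tested feature in the same Trinity component, and of the 526 at an unadjusted p under 0.05, 283 (53.8%) did. In 16 of the 283 (5.65%) a companion also had an unadjusted p under 0.05 with a fold change of the same sign, and in 2 (0.707%) with the opposite sign. Over all 14262 features with a companion these shares were 2.09% and 1.47%. With counts summed over components, edgeR called 0 of 16700 components, with 401 at an unadjusted p under 0.05.

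Different fish, with their own controls, were sampled at 24 h (3 pH and 4 control fish) and at 2 weeks (2 pH and 4 control fish). In 1 edgeR fit of all 44 libraries (34070 features), the pH difference at 24 h minus that at 12 h passed the adjusted threshold for 0 features (0%), with 2077 (6.1%) at an unadjusted p under 0.05 and a smallest adjusted p of 0.794. The pH difference at 2 weeks minus that at 12 h also passed for 0 features (0%), with 1930 (5.66%) at an unadjusted p under 0.05 and a smallest adjusted p of 0.859. Single fish moved these counts: without control fish Mys25 (24 h) 12 features passed, and without pH fish Mys54 (2 weeks) 2 passed. In the same fit pH differed from control for 1 feature at 24 h (0.00294%) and 7 at 2 weeks (0.0205%).

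The features at an unadjusted p under 0.05 at 12 h had directions at later times much like those of all features. Of the 247 higher ones, 52.6% were also higher in pH fish at 24 h and 42.1% at 2 weeks, against 47.6% and 46.8% of all features higher at 12 h. Of the 279 lower ones, 59.1% were also lower at 24 h and 57.7% at 2 weeks, against 57.4% and 55.2% of all features lower at 12 h. In the class of 100 to 1000 CPM, pH fish were higher in 73.6% of features at 12 h in this fit, in 61.7% at 24 h and in 75.9% at 2 weeks. At 1000 CPM or more the shares were 50%, 88.7% and 91.1%. These shares count features, which are not independent, in 3 pH fish at 24 h and 2 at 2 weeks. They were not tested over fish, so a later rise was not shown. The 3 most abundant features at 12 h did not pass at 24 h (edgeR adjusted p = 0.472 to 0.508) or at 2 weeks (0.436 to 0.918).

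TRINITY_DN53810_c2_g1, described above, had unlike values at the later times. At 24 h its level was 140, 97.9 and 184 CPM in pH fish and 110 to 158 CPM in control fish, which overlapped, and the log2 difference was -0.01 with an SE of 0.26 (edgeR adjusted p = 0.998). At 2 weeks it stood at 525 and 216 CPM in the 2 pH fish, above all 4 control fish at 114 to 154 CPM, and it rose by 1.52 on the log2 scale (SE 0.29, edgeR adjusted p = 0.0302). Without pH fish Mys53 the log2 fold change was 0.73 (edgeR adjusted p = 1), and leaving out any of the 4 controls gave adjusted p-values of 0.0608 to 0.222. The change of its pH difference from 12 h to 2 weeks was 0.82 on the log2 scale (edgeR adjusted p = 0.863), so a difference between the times was not shown.

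TRINITY_DN41366_c0_g1 did not separate the groups at 24 h, where pH fish stood at 1.81, 3.63 and 5.04 CPM and control fish at 2.29 to 4.27 CPM. The groups overlapped, and the pH difference at 24 h minus that at 12 h was 4.49 on the log2 scale (SE 1.37, edgeR unadjusted p = 0.00239, adjusted 0.794). At 2 weeks pH fish stood at 0 and 5.18 CPM and control fish at 1.02 to 12.9 CPM, again with overlap.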

How the data were processed

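Per the labels' protocols, total RNA of juvenile white muscle was made into stranded mRNA libraries in 2 sets of 24, in random order. The authors deposited 1 table per sampling time with expected counts (estimated reads per assembled feature), not normalized, of which 9.7% were not whole numbers in the 8 fish. Per the submitters' processing notes the tools were RSEM 1.3.0, edgeR, Bowtie, Trimmomatic 0.36 and FastQC 0.11.5, listed without role or order. How reads were assembled, aligned and counted is not given in the sources used here. Features carry no gene names, so gene lists, sequences and tissue markers were not used here.

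Expected counts were rounded to whole numbers. Groups follow the labels. In R 4.3.3, edgeR 4.0.16 (TMM scaling, the filterByExpr filter at a minimum of 10 counts and a total of 15, robust quasi-likelihood F test, two-sided, Benjamini-Hochberg adjustment over all tested features, threshold 0.05) was fitted to the 16 libraries of 12 h, with 1 coefficient per group, and to all 44 libraries for the comparisons between times. CPM values are TMM-scaled within the fit they come from, so a fish has slightly different values in the 12 h fit and in the 44-library fit. Log2 CPM used a prior count of 2, and SEs were derived from fold changes and F statistics. Single values per fish were tested by exact permutation over 70 splits. Library totals at 12 h ran from 11026372 to 36692527 counts. Chi-square statistics per feature were 12.3 to 23.9 for pairs of fish within a group, above the sampling noise of copies, so each library counted as 1 sample.

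The features named are the 2 higher and 2 lower ones with the smallest unadjusted p among those with an average log2 CPM of at least 1 and groups that do not overlap, and the 3 with the highest mean CPM. The alternatives tried were DESeq2 1.42.0, voom of limma 3.58.1, RLE size factors, a filter at a minimum count of 30 or none, the 8 fish alone, unrounded counts, counts summed over components, and each fish left out in turn. Thinning to equal depth, the shift of abundance classes and the alternatives for counts by direction were added after the data had been seen. The comparison, rules and tests were chosen with earlier results of these data known.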

Additional observations from a re-analysis of the deposited data

Results flagged for a closer look

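Among 26 sets of 4 values (6 values per fish and 7 named features, in each group), 4 had a fish whose gap to its nearest neighbour took up more of the group's range at 12 h than Dixon's critical value allows; chance gives about 1 in 20. In library total this was pH fish Mys19 at 36692527 counts, with a gap of 0.956 of the range, and control fish Mys14 at 16933708 counts, with a gap of 0.841. In TRINITY_DN50272_c0_g2 it was pH fish Mys20 at 23.8 CPM (0.902). In TRINITY_DN53379_c62_g3 it was control fish Mys15 at 52380 CPM (0.929).

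For a pair of features, every pH fish lay on one side of its control mean at 12 h and every pH fish on the opposite side at 2 weeks, and neither difference between the times passed the test. TRINITY_DN44208_c1_g7 was lower in pH fish at 12 h and stood at 2.52 and 1.08 CPM in the 2 pH fish at 2 weeks, against 0.38 to 1.48 CPM in control fish. The pH difference at 2 weeks minus that at 12 h was 2.03 on the log2 scale (SE 0.74, edgeR adjusted p = 0.859). TRINITY_DN50272_c0_g2 was higher in pH fish at 12 h and stood at 0.14 and 0.46 CPM in the 2 pH fish at 2 weeks, against 0 to 1.98 CPM in control fish. Its difference between the times was -5.25 (SE 3.03, edgeR adjusted p = 0.905).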

How the results depend on the processing

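The 0 features called at 12 h stayed at 0 with RLE size factors, a stricter filter, the 8 fish alone, unrounded counts, summed components, thinned counts and limma voom. With the 8 fish alone, the 7 features that DESeq2 called did not pass the filter, so that fit could not call them. Without the low-count filter edgeR called 30 (14 higher, 16 lower). Of these, 16 were among the 24701 features tested with the filter, and 3 were among the 7 that DESeq2 called. DESeq2 was run with the filter only. Leaving out each fish gave 0 to 2 calls, with 2 only without Mys13. Both were lower in pH fish and among the 7 that DESeq2 called. Features at an unadjusted p under 0.05 numbered 526, against 4626 without the filter, 286 with the stricter filter (fewer features tested), 982 in voom and 482 to 814 with fish left out (814 without Mys19). The share of features whose groups did not overlap was 2.36%, against 1.03% without the filter and 3.81% to 6.01% with 1 fish left out, where 3 against 4 fish separate more easily by construction. The median SD of controls exceeded that of pH fish by 0.0499, against -0.0157 to 0.0921 with fish left out (0.0035 without Mys13, -0.0157 without Mys15, 0.0921 without Mys19). After thinning this excess was 0.027. Differences between times (0 features) became 20 for 24 h and 11 for 2 weeks without the filter, and 0 to 12 and 0 to 2 with fish left out (12 without Mys25, 2 without Mys54). At an unadjusted p under 0.05 they then ran from 1487 to 3237 and from 1097 to 3264. Unless stated, the cause of a shift was not tested.

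The difference in detected features (pH minus control) reversed to -1835 after thinning, and the share of the top 100 features reversed to 0.466 percentage points more in pH fish without Mys15 (range with fish left out -2.88 to 0.466). Without the low-count filter the shift of the classes under 1, 1 to 10 and 1000 or more CPM reversed to 0.013, 0.0414 and 0.0346, and with summed components that of the last class to 0.0064. The class of 1000 CPM or more also reversed to 0.11 without Mys15, 0.02 without Mys18 and 0.03 without Mys19 (range -0.13 to 0.11). The log2 fold change of TRINITY_DN41934_c44_g1 reversed to -0.02 without Mys13 and -0.072 without Mys20 (range -0.072 to 0.18). That of TRINITY_DN53379_c62_g3 reversed to -0.04 without Mys13, -0.04 without Mys14, -0.01 without Mys16 and -0.14 without Mys20 (range -0.14 to 0.33). That of TRINITY_DN44621_c19_g8 reversed to 0.0911 without Mys15 (range -0.36 to 0.0911). Of the 4 features chosen for their p, none reversed at 12 h under 15 or 16 alternatives. The 4 features were chosen for groups that do not overlap, so leaving out 1 fish could hardly reverse them, and this is no sign of robustness. One of the 4 was called under 1 alternative (TRINITY_DN41366_c0_g1, DESeq2).

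At 24 h, where these 4 differed little, TRINITY_DN53810_c2_g1 reversed to 0.0484 without the filter and to 0.04, 0.03, 0.04 and 0.19 without Mys26, Mys28, Mys30 and Mys31 (range -0.26 to 0.19). TRINITY_DN41366_c0_g1 reversed to 0.055 without the filter and to 0.07, 0.08 and 0.33 without Mys26, Mys28 and Mys30 (range -0.36 to 0.33), and TRINITY_DN44208_c1_g7 to 0.21 and 0.02 without Mys25 and Mys31 (range -0.84 to 0.21). TRINITY_DN50272_c0_g2 reversed to 4.13, 0.33 and 0.19 without Mys25, Mys30 and Mys31 (range -2.67 to 4.13), and at 2 weeks to 0.20 without Mys50 (range -2.37 to 0.20).

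No paired analysis was possible because the groups share no fish numbers. Scaling libraries by expected values for detected features was not run, and thinning took its place. With 4 fish per group and unequal depth, small differences and low counts were at the limit of what these libraries resolve.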
